A study of Mus musculus with 8 samples.

Results

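Transcripts of 7 secreted factors that act on blood and lymph vessels were followed in cultured mouse tail tendon fibroblasts with and without scleraxis. They were Vegfa, Vegfb and Vegfc of the vascular endothelial growth factor (VEGF) family, the angiopoietins Angpt1 and Angpt2, and the angiopoietin-like genes Angptl2 and Angptl4. The genes were taken by symbol from a deposited table of read counts. All 7 were present among its 24982 genes, and all 7 were among the 13125 genes with enough counts to be tested.

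RNA sequencing covered 4 ScxKO libraries (replicates 2, 3, 4 and 5) and 4 ScxWT libraries (replicates 2, 3, 5 and 6). The ScxKO cells had the genotype Scx-, that is, without Scx, the gene of the tendon transcription factor scleraxis. The ScxWT cells had the genotype Scx+. Both groups were of the C57Bl/6 strain and both had received 4HT, so neither the strain nor the treatment differed between them. The labels read here name no recombinase, deleted part of Scx, animal age or pooling. They also do not tie replicates to animals or cultures, so each p-value is set against a spread among libraries that may be only technical.

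VEGFs signal through the receptor tyrosine kinases Flt1, Kdr and Flt4, with the neuropilins Nrp1 and Nrp2 as co-receptors. VEGF-A drives sprouting of blood vessels through Kdr, VEGF-B binds Flt1, and VEGF-C and VEGF-D act on lymphatic vessels through Flt4. Angiopoietin 1 activates the receptor Tek (Tie2) and stabilizes vessels, while angiopoietin 2 mostly counters it at the same receptor. Angiopoietin-like proteins share the angiopoietin fold but do not bind Tek; ANGPTL4 inhibits lipoprotein lipase, and ANGPTL2 signals through integrins and immune receptors. Tendon is a tissue with few vessels, and its cells also make inhibitors of vessel growth such as tenomodulin.

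Scleraxis binds E-boxes, written CANNTG, so the promoters of members that rose are shown with those letters marked, beside that of Vegfa, which did not pass the test, at the upstream of its listed starts. RefSeq promoters on GRCm38.p6, from 250 bases before a gene's start to 50 after it, matched 4 of the 7 members, namely Vegfa, Vegfb, Vegfc and Angptl2. Those of Vegfb, Angptl2 and Vegfa are printed 5′ to 3′ as RefSeq's table gives them, with E-box letters in capitals. The end of the Vegfb and Vegfa windows shown was found in a transcript of the gene in the same orientation, and no such match was found for Angptl2. Vegfb lies at chr19:6987602-6987901 on the minus strand, Angptl2 at chr2:33215711-33216010 on the plus strand, and the Vegfa window at chr17:46032328-46032627 on the minus strand.
Vegfb: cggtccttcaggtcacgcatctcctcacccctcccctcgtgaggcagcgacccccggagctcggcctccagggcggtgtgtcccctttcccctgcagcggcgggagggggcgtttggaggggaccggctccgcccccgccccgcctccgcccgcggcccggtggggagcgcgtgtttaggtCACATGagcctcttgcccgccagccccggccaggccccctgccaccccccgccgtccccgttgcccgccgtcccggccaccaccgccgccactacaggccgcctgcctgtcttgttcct
Angptl2: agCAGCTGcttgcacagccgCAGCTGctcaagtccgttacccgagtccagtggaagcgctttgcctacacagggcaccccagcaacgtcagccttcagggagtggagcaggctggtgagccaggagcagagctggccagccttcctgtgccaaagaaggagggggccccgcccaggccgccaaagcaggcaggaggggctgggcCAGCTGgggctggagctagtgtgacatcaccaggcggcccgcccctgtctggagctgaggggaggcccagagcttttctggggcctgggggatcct
Vegfa: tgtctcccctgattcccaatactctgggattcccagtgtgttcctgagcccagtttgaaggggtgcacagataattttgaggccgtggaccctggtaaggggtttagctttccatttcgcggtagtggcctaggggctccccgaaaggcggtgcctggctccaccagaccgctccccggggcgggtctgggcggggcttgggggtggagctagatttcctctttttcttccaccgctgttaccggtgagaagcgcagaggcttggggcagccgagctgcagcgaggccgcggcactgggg

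The Vegfb promoter held 1 E-box, the letters CACATG, whose first base lay at position -69 from the start. That of Angptl2 held 3, all of the form CAGCTG, and the Vegfa window shown held 0. The window at the second Vegfa start held 2, and that of Vegfc held 0. Over all 32851 promoter windows of this length, 72.3% held at least 1 E-box on either strand and 17.6% held 3 or more. The core letters of hypoxia response elements, ACGTG and GCGTG on either strand, were matched 0 and 2 times in the Vegfb window 0 times each in the other windows shown and in that of Vegfc, and 1 time each at the second Vegfa start. ACGTG was held by 19.6% and GCGTG by 32.4% of all windows, and an E-box of the form CACGTG also holds ACGTG. A match is a run of letters and was not tested as a binding site.

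The libraries held 17343228 to 25180790 counts in genes. Scx went with the labels, at 3, 1, 2 and 3 counts in ScxKO 2, 3, 4 and 5, against 177, 132, 252 and 156 counts in ScxWT 2, 3, 5 and 6. The fibroblast collagen gene Col1a1 stood at 2702 CPM in ScxKO and 3921 CPM in ScxWT cells on average, where CPM are counts scaled to a common library size with TMM factors. Of 11 tenocyte and fibroblast markers, all were tested and 8 fell, where 14.5% of all tested genes fell. Scx itself is among those 8, and its fall follows from the genotype. Of 14 endothelial markers only 4 had enough counts to be tested, and Cldn5 and Sox17 had 0 counts in all 8 libraries. Pecam1 averaged 0.112 CPM in ScxKO and 0.302 CPM in ScxWT cells, while Vwf averaged 0.549 CPM in ScxKO and 0.208 CPM in ScxWT cells. Cdh5 averaged 1.65 CPM in ScxKO and 1.45 CPM in ScxWT cells, and Ptprb and Egfl7, which rose, are described with the receptors. ScxWT 5 stood apart from the other ScxWT libraries. Pairs with it had a chi-square per degree of freedom of 11.5 to 13.3 over genes, against 2.42 to 4.52 for other ScxWT pairs and 2.60 to 3.68 for ScxKO pairs, so each member is also given without it.

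Loss of Scx went with opposite changes in these factors. Angpt2, Vegfb and Angptl2 rose, Angpt1 and Angptl4 fell, and Vegfa and Vegfc did not pass the test. The log2 change compares ScxKO with ScxWT, so a positive value is higher in ScxKO cells. Thus 3 of 7 members rose and 2 fell at an edgeR adjusted p under 0.05, where 14.0% of all tested genes rose and 14.5% fell, or 28.5% in either direction. The groups did not overlap for 4 of the 7, against 29.1% of tested genes. The median log2 change of the 7 was 0.20, against -0.01 over all genes tested. In a bulk sample, fewer cells that make a transcript and less transcript per cell cannot be told apart.

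**Figure D1:**
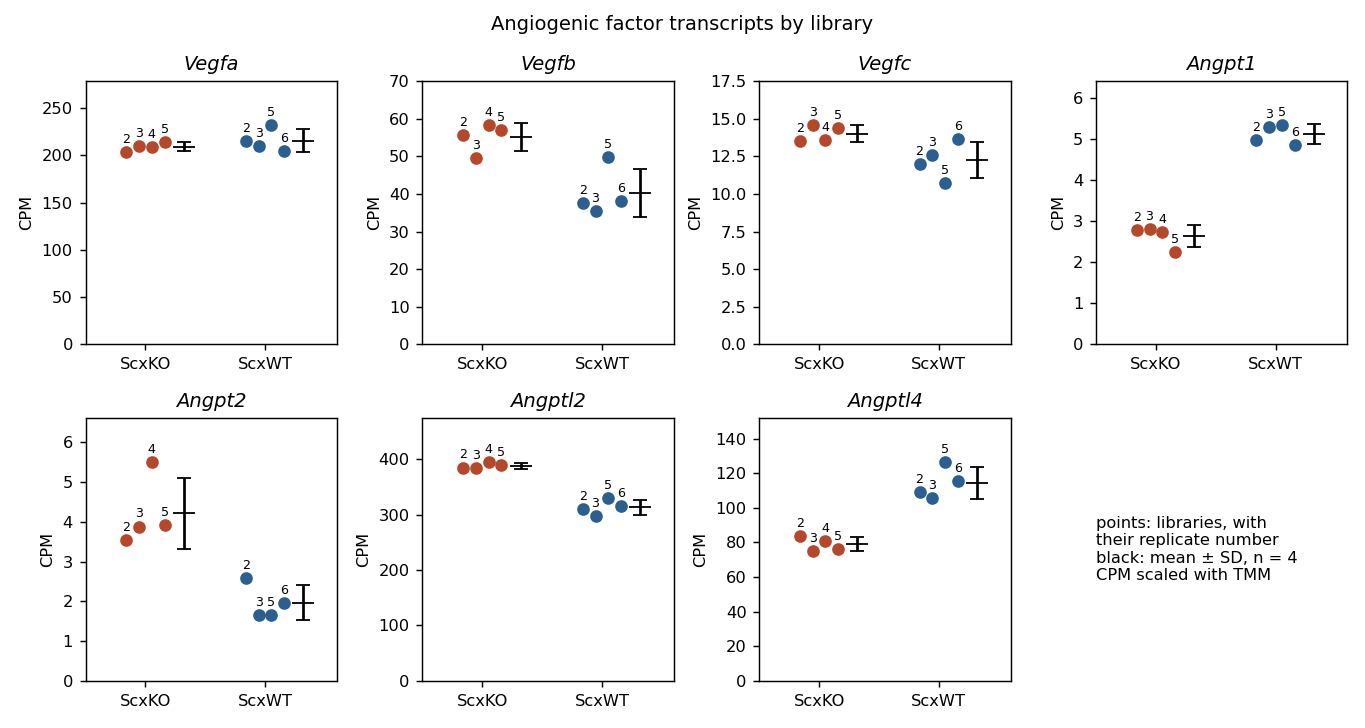
CPM of the 7 members in each library, ScxKO to the left of ScxWT in each panel, with the replicate number at each point and the mean ± SD in black (n = 4). The groups do not overlap for Angpt1, Angpt2, Angptl2 and Angptl4, and ScxWT 5 is the highest ScxWT library for Vegfa, Vegfb, Angpt1, Angptl2 and Angptl4.

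The angiopoietins moved apart. Angpt1 (chromosome 15, 42424723 to 42676977, minus strand, GRCm38) encodes the activating ligand of Tek. It had 55, 60, 47 and 50 counts in ScxKO 2, 3, 4 and 5, or 2.78, 2.81, 2.73 and 2.25 CPM. The ScxWT libraries 2, 3, 5 and 6 had 115, 99, 133 and 111 counts, or 4.98, 5.30, 5.35 and 4.85 CPM. Every ScxKO library lay below every ScxWT library, and the gap between the groups was wider than the range within either. Angpt1 averaged 2.64 ± 0.264 CPM in ScxKO and 5.12 ± 0.244 CPM in ScxWT cells (SD, n = 4 each). That is a log2 change of -0.96 ± 0.12 (SE, edgeR adjusted p = 1.72e-05). Gm17473, on the other strand, shares exon sequence with Angpt1, and the use of strand in counting is not given, so reads of that gene could be included.

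Angpt2 (chromosome 8, 18690263 to 18741562, minus strand), which lies within Mcph1 without sharing its exons, encodes the ligand that mostly opposes Angpt1. Counts were 70, 83, 95 and 87 in ScxKO 2, 3, 4 and 5, or 3.54, 3.88, 5.52 and 3.91 CPM. In ScxWT 2, 3, 5 and 6 they were 60, 31, 41 and 45, or 2.60, 1.66, 1.65 and 1.97 CPM. The groups did not overlap, with ScxKO 4 the highest and ScxWT 2 the nearest of the ScxWT libraries to the ScxKO group. Angpt2 averaged 4.21 ± 0.884 CPM in ScxKO and 1.97 ± 0.445 CPM in ScxWT cells (SD, n = 4 each), which is 2.11-fold, or 1.08 ± 0.18 on the log2 scale (SE, edgeR adjusted p = 0.000285). Without ScxWT 5 the log2 change was 0.995 for Angpt2 and -0.93 for Angpt1, both past the threshold. The host gene of Angpt2, Mcph1, averaged 15.9 CPM in ScxKO and 17.3 CPM in ScxWT cells and did not pass the test.

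Set against each other in the same library, the angiopoietins changed order. Per kilobase of exon, Angpt2 counts were 1.80, 1.95, 2.85 and 2.45 times those of Angpt1 in ScxKO 2, 3, 4 and 5. The ratio was 0.736, 0.442, 0.435 and 0.572 in ScxWT 2, 3, 5 and 6. Angpt2 was thus above Angpt1 in all 4 ScxKO libraries and below it in all 4 ScxWT libraries. The log2 ratio of counts averaged 0.66 ± 0.31 in ScxKO and -1.40 ± 0.36 in ScxWT cells (SD, n = 4 each). The difference of 2.06 lay between 1.94 and 2.22 when any 1 library was left out, and it is given with no test because it combines members. Both genes were low, at 15.2% and 16.9% in the ranking of tested genes by mean CPM for Angpt2 and Angpt1.

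**Figure D2:**
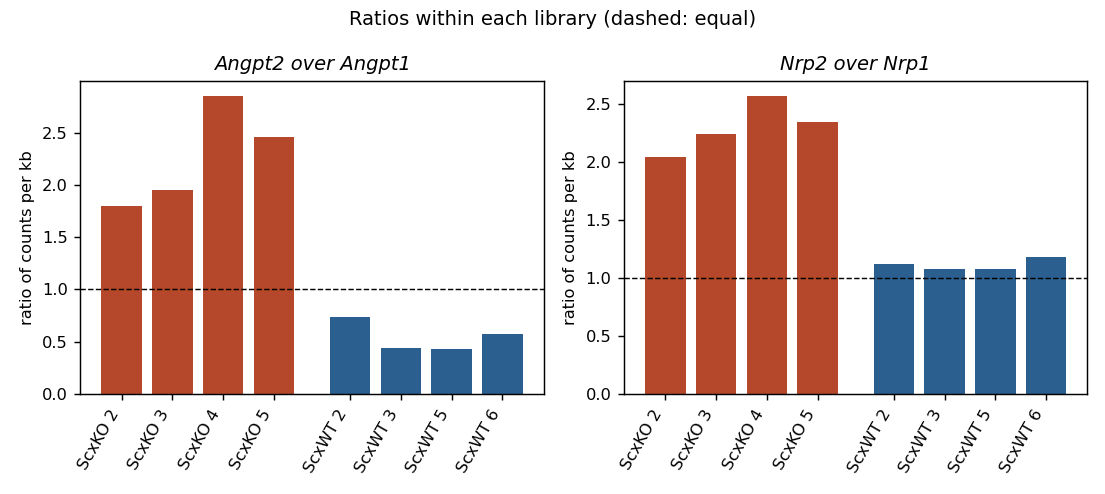
Ratios of counts per kb of exon within each library, Angpt2 over Angpt1 on the left and Nrp2 over Nrp1 on the right, with a dashed line where the pair is equal. Angpt2 over Angpt1 spans 1.80 to 2.85 in ScxKO and 0.435 to 0.736 in ScxWT libraries, and Nrp2 over Nrp1 spans 2.04 to 2.57 in ScxKO and 1.08 to 1.18 in ScxWT libraries.

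Tek, the shared receptor of the angiopoietins, was itself present in these cells and fell. It stood at 47.5, 48.3, 41.5 and 49.3 CPM in ScxKO 2, 3, 4 and 5, and at 75.2, 75.1, 82.3 and 64.3 CPM in ScxWT 2, 3, 5 and 6. The groups did not overlap, and the log2 change was -0.67 ± 0.07 (SE) with an edgeR adjusted p = 4.65e-06. Tie1, the partner receptor that is typical of endothelial cells, had 4 counts over the ScxKO and 6 over the ScxWT libraries and was not tested. Ptprb, the phosphatase that restrains Tek and is counted here among endothelial markers, averaged 8.73 ± 0.956 CPM in ScxKO and 5.59 ± 0.496 CPM in ScxWT cells (SD, n = 4 each), or 0.64 ± 0.11 on the log2 scale (SE, edgeR adjusted p = 0.000271). The third ligand of Tek in the mouse, Angpt4, averaged 5.03 CPM in ScxKO and 5.54 CPM in ScxWT cells and did not pass the test (log2 change -0.14, edgeR adjusted p = 0.467).

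Of the VEGFs, only Vegfb among the 3 members passed the test. Vegfb (chromosome 19, 6982473 to 6987651, minus strand), the ligand of Flt1 whose promoter is printed above, stood at 55.7, 49.7, 58.4 and 56.9 CPM in ScxKO 2, 3, 4 and 5. ScxWT 2, 3, 5 and 6 had 37.7, 35.6, 49.8 and 38.2 CPM. ScxWT 5 was the high library of its group and reached ScxKO 3, so the groups touched there. The log2 change was 0.45 ± 0.09 (SE), or 1.36-fold, with an edgeR adjusted p = 0.00118, and without ScxWT 5 it was 0.57 with an adjusted p of 3.35e-08.

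Vegfa (chromosome 17, 46016993 to 46032369, minus strand), the main factor of blood vessel sprouting, was close to equal in the groups. It had 204, 210, 209 and 215 CPM in ScxKO 2, 3, 4 and 5, and 215, 210, 232 and 204 CPM in ScxWT 2, 3, 5 and 6. ScxKO 3, 4 and 5 lay within the ScxWT range and ScxKO 2 just below it, and ScxWT 5 lay above every other library. The log2 change was -0.04 ± 0.04 (SE, edgeR adjusted p = 0.523), with a 95% interval from -0.13 to 0.04. Without ScxWT 5 it was 0.0028 with an adjusted p of 0.962.

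Vegfc (chromosome 8, 54077606 to 54187096, plus strand), a ligand of the lymphatic receptor Flt4, was scarcer. It had 13.5, 14.6, 13.6 and 14.4 CPM in ScxKO 2, 3, 4 and 5, and 11.99, 12.6, 10.7 and 13.6 CPM in ScxWT 2, 3, 5 and 6. ScxWT 6 lay within the ScxKO range and the other ScxWT libraries below it. The log2 change of 0.20 ± 0.08 (SE) missed the threshold (edgeR adjusted p = 0.0780), with a 95% interval from 0.04 to 0.36. It passed without ScxWT 6, at 0.26 with an adjusted p of 0.0319, and did not without ScxWT 5, at 0.15 with an adjusted p of 0.148. The authors' deposited table gives 0.26 with an adjusted p of 0.0196.

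The remaining VEGF genes changed in opposite directions. Vegfd, the other ligand of Flt4, had 150, 151, 142 and 147 CPM in ScxKO 2, 3, 4 and 5, and 196, 208, 222 and 182 CPM in ScxWT 2, 3, 5 and 6, a log2 change of -0.46 ± 0.05 (SE, edgeR adjusted p = 1.30e-05). Pgf, placental growth factor and like VEGF-B a ligand of Flt1, averaged 4.68 ± 0.669 CPM in ScxKO and 3.01 ± 0.331 CPM in ScxWT cells (SD, n = 4 each), or 0.62 ± 0.13 on the log2 scale (SE, edgeR adjusted p = 0.00212). Both ligands that bind Flt1 alone among the VEGF receptor kinases were therefore higher in ScxKO cells, and the groups did not overlap for Pgf or Vegfd.

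Per kilobase of exon, the 5 VEGF genes summed to 150 to 154 CPM per kb in ScxKO and 154 to 183 CPM per kb in ScxWT libraries. Vegfd made up 40.3% ± 1.34 of that sum in ScxKO and 50.8% ± 1.52 in ScxWT cells (SD, n = 4 each). The share of Vegfb was 22.7% ± 1.45 in ScxKO and 15.1% ± 1.44 in ScxWT cells, and that of Vegfa 32.2% ± 0.571 in ScxKO and 30.4% ± 0.772 in ScxWT cells. Vegfc held 3.77% ± 0.152 in ScxKO and 3.05% ± 0.502 in ScxWT cells. These shares were chosen after the values had been seen, are tied to each other because they sum to the whole, and carry no test.

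**Figure D3:**
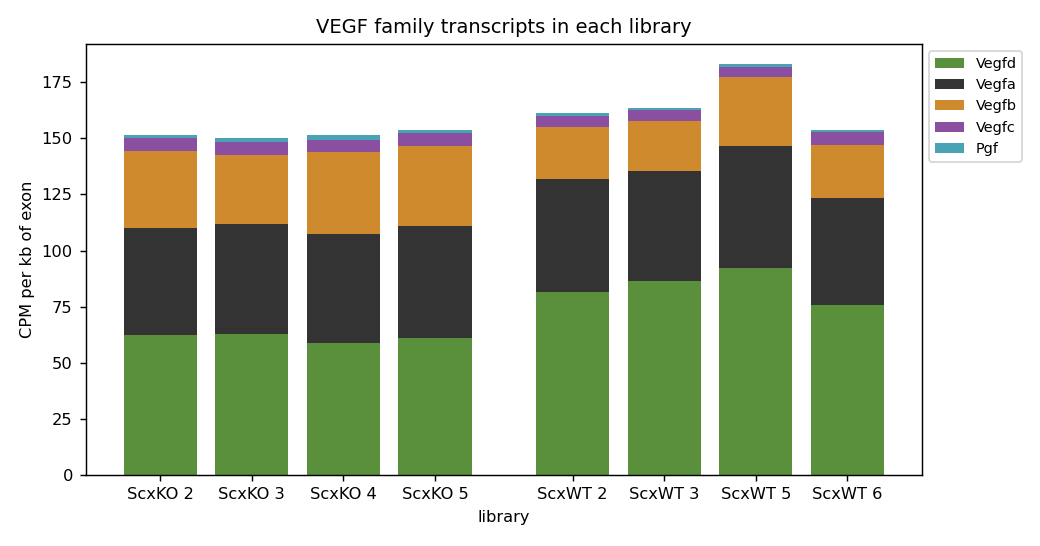
CPM per kb of exon of the 5 VEGF genes, stacked for each library, with the ScxKO libraries to the left of the ScxWT libraries. Vegfd is the tallest part in every library and averages 61.2 CPM per kb in ScxKO and 84.0 CPM per kb in ScxWT cells, while the Vegfb part averages 34.4 in ScxKO and 25.1 in ScxWT cells.

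The angiopoietin-like members also parted. Angptl4 (chromosome 17, 33773750 to 33781830, minus strand), the lipoprotein lipase inhibitor, had 83.5, 75.3, 81.0 and 76.3 CPM in ScxKO 2, 3, 4 and 5. It had 109, 106, 127 and 115 CPM in ScxWT 2, 3, 5 and 6. Every ScxKO library was below every ScxWT library. The log2 change was -0.53 ± 0.06 (SE), to 0.691 of the ScxWT level, with an edgeR adjusted p = 5.03e-06, and it was -0.47 without ScxWT 5.

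Angptl2 (chromosome 2, 33216069 to 33247717, plus strand), whose protein signals through integrins, had 385, 384, 396 and 390 CPM in ScxKO 2, 3, 4 and 5, and 310, 298, 330 and 316 CPM in ScxWT 2, 3, 5 and 6. The ScxKO libraries were close to each other and all above the ScxWT libraries. The log2 change was 0.31 ± 0.04 (SE), or 1.24-fold, with an edgeR adjusted p = 2.93e-05, and it was 0.34 without ScxWT 5. It lies within a span of Ralgps1 on the other strand and shares no exon with it.

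Among the other angiopoietin-like genes, Angptl7, a gene known for its expression in connective tissue of the eye, fell further than Angptl4 did. It had 160, 151, 142 and 195 CPM in ScxKO 2, 3, 4 and 5, against 312, 335, 321 and 253 CPM in ScxWT 2, 3, 5 and 6, a log2 change of -0.91 ± 0.09 (SE, edgeR adjusted p = 2.44e-06). Angptl6 averaged 5.09 ± 0.660 CPM in ScxKO and 3.46 ± 0.596 CPM in ScxWT cells (SD, n = 4 each) and rose by 0.55 ± 0.14 (SE, edgeR adjusted p = 0.00791). It shares exon sequence with A230050P20Rik on the other strand, which averaged 0.920 CPM in ScxKO and 0.967 CPM in ScxWT cells. Angptl1 averaged 1.14 CPM in ScxKO and 1.32 CPM in ScxWT cells and did not pass. Angptl8 had 2 counts over the ScxKO and 1 over the ScxWT libraries. Thus 2 of the 6 tested relatives outside the 7 members rose and 2 fell, where 14.0% of all tested genes rose and 14.5% fell.

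**Figure D4:**
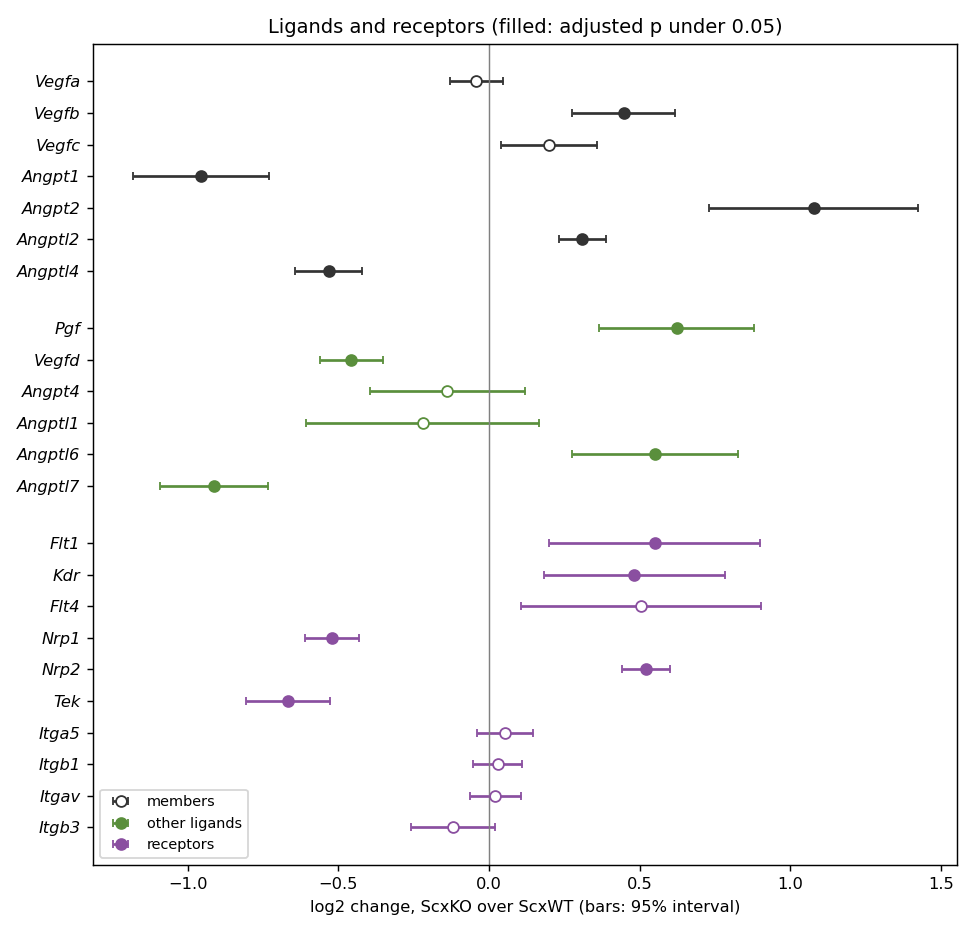
Log2 change, ScxKO over ScxWT, of the 7 members (top), the 6 other tested ligands of their families (middle) and 10 tested receptors (bottom), with bars for the 95% interval and filled points at an edgeR adjusted p under 0.05. Angpt1 at -0.96 and Angpt2 at 1.08 lie farthest from 0 among the members, and Nrp1 at -0.52 and Nrp2 at 0.52 mirror each other among the receptors.

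Ranked by level per kilobase of exon, the members stood in another order in each group. In ScxKO cells Angptl2 was highest at 61.8 ± 0.857 CPM per kb, followed by Vegfa at 48.8 ± 1.04, Vegfb at 34.4 ± 2.39 and Angptl4 at 22.3 ± 1.10 CPM per kb (SD, n = 4). The libraries of neighbours in that order did not overlap. In ScxWT cells Vegfa at 50.3 ± 2.83 and Angptl2 at 49.8 ± 2.09 CPM per kb did not differ beyond their spread, and their ratio within a library ran from 0.967 to 1.05 (Angptl2 over Vegfa). Angptl4 at 32.2 ± 2.63 and Vegfb at 25.1 ± 4.00 CPM per kb overlapped between libraries, but Angptl4 was above Vegfb within each ScxWT library, by 1.15 to 1.37 times (SD, n = 4). Vegfc followed at 5.73 CPM per kb in ScxKO and 4.997 CPM per kb in ScxWT cells. Angpt2 and Angpt1 stood at 1.14 and 0.508 CPM per kb in ScxKO cells, and at 0.533 and 0.984 CPM per kb in ScxWT cells.

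The neuropilins, which are co-receptors of the VEGFs, moved in opposite directions. Nrp1, a co-receptor of VEGF-A, had 269, 263, 233 and 254 CPM in ScxKO 2, 3, 4 and 5, and 367, 370, 372 and 353 CPM in ScxWT 2, 3, 5 and 6. Nrp2, which also binds VEGF-C and VEGF-D, had 665, 714, 724 and 720 CPM in ScxKO 2, 3, 4 and 5, and 496, 482, 484 and 505 CPM in ScxWT 2, 3, 5 and 6. Per kilobase of exon Nrp2 exceeded Nrp1 by 2.30 ± 0.219 times in ScxKO and 1.11 ± 0.0512 times in ScxWT cells (SD, n = 4 each).

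The VEGF receptor kinases were low. Flt1 averaged 2.27 ± 0.403 CPM in ScxKO and 1.53 ± 0.254 CPM in ScxWT cells, and Kdr 3.07 ± 0.533 CPM in ScxKO and 2.18 ± 0.236 CPM in ScxWT cells (SD, n = 4 each). Their log2 changes were 0.55 ± 0.18 (SE, edgeR adjusted p = 0.0308) and 0.48 ± 0.15 (SE, edgeR adjusted p = 0.0272). Their groups overlapped, and neither passed with DESeq2 (adjusted p of 0.0590 and 0.0507) or in the authors' deposited table (adjusted p of 0.129 and 0.153). Flt1 missed the threshold without any of ScxKO 2, 4 and 5 or ScxWT 2, 3 and 6, and Kdr without any of ScxKO 3, 4 and 5 or ScxWT 6, with adjusted p between 0.0503 and 0.110. Kdr also missed it with the replicate number as a block, at 0.34 (edgeR adjusted p = 0.191). With the block and the correction for GC content and length it was 0.33 (edgeR adjusted p = 0.151). Flt4 stood at 2.82 ± 0.683 CPM in ScxKO and 1.94 ± 0.499 CPM in ScxWT cells (SD, n = 4 each) and did not pass (0.51 ± 0.20 on the log2 scale, SE, edgeR adjusted p = 0.0754). It passed without ScxWT 6, at 0.63 with an adjusted p of 0.0468, and with the correction for GC content and length, at 0.54 with an adjusted p of 0.0307.

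Of the 10 tested receptor genes 3 rose and 2 fell, where 14.0% of all tested genes rose and 14.5% fell. The count that rose was 1 with DESeq2 and 1 without ScxKO 4 or ScxKO 5. The integrin genes Itga5, Itgb1, Itgav and Itgb3 had log2 changes of 0.05, 0.03, 0.02 and -0.12 and did not pass the test. Pirb, the mouse receptor of ANGPTL2 on immune cells, had 0 counts over the ScxKO and 1 over the ScxWT libraries. Endothelial markers are given beside the receptor kinases and did not move as 1 set. Their summed level was 15.9 to 21.1 CPM in ScxKO and 12.8 to 13.8 CPM in ScxWT libraries. Of 4 tested markers 2, Ptprb and Egfl7, rose and 0 fell, while Cdh5 (0.18) and Prox1 (0.08) did not pass. Ptprb and Egfl7 also had the highest mean CPM of the list. Among untested markers, all under 1 CPM on average, Pecam1, Plvap, Lyve1 and Mmrn1 averaged lower in ScxKO cells. Vwf, Emcn, Esam and Erg averaged higher there. The part of such cells in the receptor values was not tested.

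VEGF-C and VEGF-D are made as precursors, and 7 genes for their processing were tested. Adamts3, the protease that activates VEGF-C, averaged 1.67 ± 0.160 CPM in ScxKO and 4.09 ± 1.03 CPM in ScxWT cells (SD, n = 4 each), or -1.31 ± 0.18 on the log2 scale (SE, edgeR adjusted p = 7.52e-05). Ccbe1, its cofactor, averaged 124 ± 1.76 CPM in ScxKO and 112 ± 7.23 CPM in ScxWT cells and rose by 0.15 ± 0.05 (SE, edgeR adjusted p = 0.0294). Ctsd, the gene of cathepsin D, rose by 0.18 ± 0.06 (SE, edgeR adjusted p = 0.0229). Adamts14 (-0.15), Furin (-0.02), Pcsk5 (-0.11) and Pcsk7 (-0.08) did not pass the test, although Pcsk5, which was highest in ScxKO 4, did so without that library at -0.48 with an adjusted p of 0.0238. So 2 of 7 rose and 1 fell, where 14.0% of all tested genes rose and 14.5% fell. The count that rose was 0 without ScxKO 4, ScxKO 5 or ScxWT 6 and 1 without ScxKO 2, ScxKO 3, ScxWT 2 or ScxWT 3. The count that fell was 2 without ScxKO 4. With the replicate number as a block, Ccbe1 and Ctsd missed the threshold (edgeR adjusted p of 0.0792 and 0.0783) and Pcsk5 passed at -0.47 (edgeR adjusted p = 0.0488).

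Vegfa and Angptl4 are textbook targets of hypoxia-inducible factors, so the other targets are given beside them. Of 20 tested targets 12 rose and 0 fell, where 14.0% of all tested genes rose and 14.5% fell. Their median log2 change was 0.32, while Vegfa was at -0.04 and Angptl4 fell. Without ScxKO 2, 1 target fell. Hk2, the hexokinase gene, rose by 0.79, Ankrd37 by 1.29, the oxidoreductase gene Ero1l by 0.46, the glucose transporter gene Slc2a1 by 0.45 and the mitophagy gene Bnip3 by 0.60 on the log2 scale. Slc2a1 averaged 155 ± 8.09 CPM in ScxKO and 113 ± 6.94 CPM in ScxWT cells (SD, n = 4 each), and its groups did not overlap. Of 6 tested genes for the factors and their regulators, edgeR, DESeq2 and limma-voom each called 0, with 1 gene at an unadjusted edgeR p under 0.05. Upper-quartile scaling called 1 lower, and the correction for GC content and length called 1 higher and 1 lower. Among all 17 alternatives, 2 called 1 gene higher and 3 called 1 gene lower.

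Angptl4 is also a target of the lipid-sensing PPAR receptors, whose genes and other targets are given beside it. Of 12 tested PPAR receptors and targets 4 rose, 1 fell and 7 did not pass, with a median log2 change of 0.02. Over all tested genes 14.0% rose and 14.5% fell. Those that did not pass were the receptor genes Ppara (0.36) and Ppard (0.05) and the targets Pdk4 (-0.04), Cpt1a (-0.01), Hadha (-0.01), Slc25a20 (-0.02) and Cd36 (-0.28). The fatty acid binding protein genes Fabp3 and Fabp4 rose by 0.995 and 0.40, the lipid droplet gene Plin2 by 0.38 and the receptor gene Pparg by 0.53. Acadvl, which acts in mitochondrial fatty acid oxidation, fell (-0.19) and was named after its value had been seen, and 2 genes fell without ScxWT 2. Adipocyte markers summed to 94.4 to 132 CPM in ScxKO and 162 to 252 CPM in ScxWT libraries, most of it Car3, with 1 of 5 tested lower and 0 higher. Their part in these values was not tested.

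Lpl, the enzyme that ANGPTL4 inhibits, averaged 103 ± 8.27 CPM in ScxKO and 90.0 ± 2.53 CPM in ScxWT cells (SD, n = 4 each). Its log2 change of 0.19 ± 0.05 (SE, edgeR adjusted p = 0.0132) ran opposite to that of Angptl4, but it missed the threshold without ScxKO 4 or ScxKO 5. The endothelial lipase gene Lipg rose by 0.76 ± 0.08 (SE, edgeR adjusted p = 5.83e-06), with 25.2 ± 2.66 CPM in ScxKO and 14.9 ± 1.05 CPM in ScxWT cells (SD, n = 4 each). The lipoprotein receptor gene Vldlr rose by 0.21 ± 0.06 (SE, edgeR adjusted p = 0.0153). Of 5 tested genes of this system 3 rose and 0 fell, against 14.0% and 14.5% of all tested genes, and 1 rose without ScxKO 5. Gpihbp1, which holds the lipase at the vessel wall, had 0 counts in every library.

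Of 12 tested genes listed as inhibitors of vessel growth 5 fell and 2 rose, against 14.5% and 14.0% of all tested genes. Their median log2 change was -0.08, and 1 rose without ScxKO 3. Those that rose were Vash2 and Cxcl10. Thbs1 (0.02), Thbs2 (0.03), Col18a1 (-0.07), Serpinf1 (-0.10) and Vash1 (0.13) did not pass. Thbs1 averaged 6498 CPM in ScxKO and 6426 CPM in ScxWT cells. Tnmd, the gene of tenomodulin, changed by -1.39, the protease gene Adamts1 by -0.53, and the neuropilin ligands Sema3a and Sema3f by -0.38 and -0.74. Tnmd was low, at 2.63 CPM in ScxKO and 6.93 CPM in ScxWT cells. Vash2 rose by 0.66, although vasohibin 2, unlike its relative VASH1, is known to favour vessel growth. Cxcl10, a chemokine gene that inhibits vessel growth, averaged 1.75 ± 0.997 CPM in ScxKO and 0.720 ± 0.244 CPM in ScxWT cells (SD, n = 4 each) with overlapping groups, and rose by 1.302 on the log2 scale (edgeR adjusted p = 0.0175).

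Of 16 other tested vessel growth factor genes 3 rose and 3 fell, with a median log2 change of 0.03. Those counts are not far from the shares of all tested genes, 14.0% higher and 14.5% lower. The chemokine genes Cxcl12 and Ccl2 rose by 0.67 and 0.39, while the Notch ligand gene Jag1 (-0.69), pleiotrophin (Ptn, -1.09) and hepatocyte growth factor (Hgf, -0.74) fell. Cxcl12 averaged 287 ± 16.8 CPM in ScxKO and 181 ± 22.4 CPM in ScxWT cells (SD, n = 4 each). Macrophage markers summed to 24.1 to 27.9 CPM in ScxKO and 22.1 to 24.6 CPM in ScxWT libraries, most of it Cd14, which did not pass the test. Of 5 tested, Cd68 (0.59) and Csf1r (0.70) rose and Mrc1 (-0.72) fell, Ptprc and Adgre1 were near 0, and their part in the chemokine values was not tested. Jag1 averaged 30.7 ± 2.51 CPM in ScxKO and 49.5 ± 0.964 CPM in ScxWT cells (SD, n = 4 each).

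The genes closest in pattern to each member were sought among 9264 protein-coding genes averaging 10 CPM or more, by Pearson's r of log2 CPM over the 8 libraries. These libraries share the group difference and, for ScxWT 5, its distance from the rest, and r is given as a description with no test. For Angptl2 they were Smurf1 (r of 0.997), Slc6a8 and Nfe2l1 (r of 0.996 each), and for Angptl4 Il4ra, Mov10 and Fam83d (r of 0.99 each). For Angpt1 they were Rnf145 (r of 0.995), Fstl1 and Csgalnact1 (r of 0.993 each), and for Angpt2 Adh5, Armcx3 and Rufy1 (r of 0.98 each). Vegfb was followed by Trmt1, Homer3 and Cdkn1a (r of 0.99 each), and Vegfc by Ppp4r2, Senp5 and Vps50 (r of 0.98 each). Vegfa was followed by Zfp36 and Tapbp (r of 0.96 each) and Thap3 (r of 0.94), none of which passed the test between the groups.

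The authors' deposited table gives the same direction for all 7 members. Its log2 changes, with a sign read as ScxKO over ScxWT because 91.8% of the 13110 shared genes then had the same sign as in the fit, were -0.94 for Angpt1, 1.14 for Angpt2, 0.50 for Vegfb, 0.33 for Angptl2 and -0.56 for Angptl4. The authors' deposited table lists Vegfa at -0.02 with an adjusted p of 0.763.

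**Figure D5:**
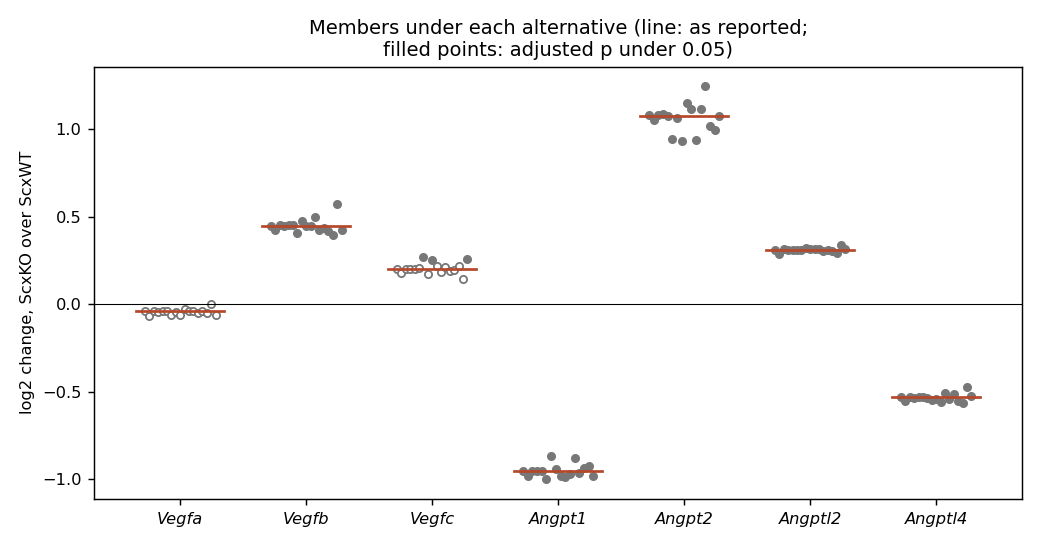
Log2 change, ScxKO over ScxWT, of each member under every alternative way of processing or library left out (grey points), with the value as reported as a line and filled points at an adjusted p under 0.05. Points of Angpt1, Angpt2, Vegfb, Angptl2 and Angptl4 stay on their side of 0 and are all filled, those of Vegfc are filled 3 times, and those of Vegfa lie between -0.07 and 0.0028 and are all open.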

How the data were processed

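RNA of 8 libraries of cultured tail tendon fibroblasts was analysed, grouped as ScxKO and ScxWT by their titles. Every test used the raw whole-number counts that the authors deposited. Per the submitters' processing notes, the tools were FastQC, STAR and DESeq2 and the build was mm10; no role, counter, annotation or strand setting is named there, so genes that overlap can carry uncertain counts. Reads in no feature (7.44% to 8.67%) and ambiguous reads (0.490% to 0.567%) stayed out. The authors' deposited comparison table gives a log2 fold change, its standard error (a score) and an adjusted p-value, per the file headers; it was used for comparison, and 2 columns that do not name a group were not used.

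The tests ran in edgeR 4.0.16 under R 4.3.3. After filterByExpr (minimum count 10, total 15) and TMM scaling, edgeR's quasi-likelihood test between the groups gave log2 changes of ScxKO over ScxWT with Benjamini-Hochberg adjustment over 13125 genes at 0.05. Standard errors are the log2 change over the square root of F. The 95% intervals add and subtract a normal quantile times that error. They are not adjusted for the number of genes and are somewhat narrower than the quasi-likelihood test itself would give. CPM use TMM factors, and CPM per kb divide by the union of exons in GENCODE M21 (GRCm38), to which 98.0% of symbols matched. Precision follows the counts: 1 count was 0.0402 to 0.0581 CPM.

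The members and gene lists were chosen with earlier results of these data known. Genes were named as follows: the 7 members, Scx, up to 5 called genes with the smallest p from each list, list genes whose products bind or process a member's product, and the 3 genes closest in pattern to each member. Lists are described by counts and medians, and some genes are not reported here. The alternatives tried were DESeq2 1.42.0, limma-voom (limma 3.58.1), scaling by RLE or upper quartile, leaving out the filter or requiring 5 CPM in at least 4 libraries, the replicate number as a block, a loess correction for GC content and exon length (span 0.3), both together, and each library left out. The fit was tested on simulated counts. Libraries of a group differed from each other by more than sampling noise, and each was kept as a separate replicate.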

Additional observations from a re-analysis of the deposited data

Results flagged for a closer look

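In 154 groups of 4 libraries, covering the members and named genes, 9 held a library far from the other 3 by Dixon's test, where chance flags about 1 group in 20. Angpt1 was lowest in ScxKO 5 at 2.25 CPM, with the rest of that group at 2.73 to 2.81 CPM. Nrp2 was lowest in ScxKO 2 at 665 CPM, and Tnmd was highest there at 3.04 CPM. ScxKO 4 was high for Pcsk5 at 5.05 CPM, with the rest of that group at 2.01 to 2.33 CPM, and for Egfl7 at 5.11 CPM. Trmt1 was lowest in ScxKO 3 at 53.6 CPM. ScxWT 5, which stood apart as a library, was high for Ctsd at 1564 CPM and Homer3 at 107 CPM and low for Bnip3 at 40.3 CPM.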

How the results depend on the processing

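Angpt1, Angpt2, Vegfb, Angptl2 and Angptl4 kept their direction and stayed past the threshold under every alternative run in which they were tested; Angpt1 and Angpt2 did not pass the filter of 5 CPM. With libraries left out, the log2 change ranged from -0.99 to -0.88 for Angpt1, 0.94 to 1.25 for Angpt2, 0.40 to 0.57 for Vegfb, 0.29 to 0.34 for Angptl2 and -0.56 to -0.47 for Angptl4. Vegfa ranged from -0.064 to 0.0028, turning sign without ScxWT 5. Vegfc ranged from 0.15 to 0.26 and passed without ScxWT 6. With the replicate number as a block Vegfc was 0.27, and 0.25 with the block and the correction for GC content and length together, both past the threshold. The block changed no other member's call. Among receptors and processing genes it ended the calls of Kdr (0.34, adjusted p = 0.191), Ccbe1 (0.13, adjusted p = 0.0792) and Ctsd (0.14, adjusted p = 0.0783), and Flt4 (0.52, adjusted p = 0.0448) and Pcsk5 (-0.47, adjusted p = 0.0488) passed. Same-numbered libraries deviated together with r of -0.06, 0.16 and 0.06 for numbers 2, 3 and 5, against -0.23 to 0.14 for other pairs. These few values cannot tell whether a number marks a shared litter or day, which the labels do not give. With the block 1561 genes were higher and 1676 lower, against 1842 and 1902 without it. The correction for GC content and length gave 2668 higher and 2413 lower, and upper-quartile scaling 1539 higher and 2288 lower.

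Named genes that did not pass and turned sign were Itgav, Furin, Pcsk5 and Zfp36. Itgav was -0.0028 with upper-quartile scaling and ranged from -0.0041 to 0.043 with libraries left out. Furin was 0.045 with the correction for GC content and length and 0.047 with that and the block, and ranged from -0.061 to 0.054. Pcsk5 ranged from -0.478 to 0.037 and Zfp36 from -0.062 to 0.023. The cause was not tested. Depth limits the angiopoietins, which rest on 31 to 133 counts in a library.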
